A study of Mus musculus with 6 samples.

Results

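De novo lipogenesis, the making of fatty acids from the carbon of sugar, was examined in liver tumors of WT mice and of mice that lack Top1mt, the topoisomerase of mitochondria. The genes were 10 rows of the deposited expression table, taken by symbol: Srebf1, Mlxipl, Acly, Acaca, Acacb, Fasn, Scd1, Elovl6, Me1 and Pnpla3. Each symbol was found once among 30236 rows, and all 10 were among the 22677 genes tested. Srebf1, Acly, Acaca and Fasn lie on mouse chromosome 11, Mlxipl and Acacb on 5, and the others on chromosomes 3 (Elovl6), 9 (Me1), 15 (Pnpla3) and 19 (Scd1).

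RNA came from 3 WT tumors and 3 Top1mt-KO tumors (labelled Top1mt -/-) of male C57BL/6 mice, and the mutant line was kept by breeding heterozygotes. All mice of both genotypes had received the carcinogen diethylnitrosamine at day 14 of life. From week 8 they had then received carbon tetrachloride, which injures the liver, for 14 weeks, in injections that the paper calls biweekly. The hepatocellular carcinomas were collected at 22 weeks of age. The study describes the tumors as independent, and neither it nor the labels state that each came from a different mouse. The p-values therefore measure the spread between these tumors. The samples were pieces of whole tumor, in which fewer cells of a type and less RNA per cell cannot be told apart.

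In this pathway ATP citrate lyase cleaves citrate to cytosolic acetyl-CoA, acetyl-CoA carboxylase turns it into malonyl-CoA, and fatty acid synthase builds palmitate from both with NADPH as reductant. Elongase and desaturase then give the longer and the monounsaturated chains that enter triglyceride. In liver the genes are switched on after feeding by SREBP-1c, which answers to insulin, and by ChREBP, which answers to glucose. SREBP precursors sit in the membrane of the endoplasmic reticulum, where INSIG proteins hold them and their escort SCAP back from the Golgi, the place of their activation.

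The values are the authors' log2 expression levels, normalized between libraries. They carry no read totals, and sequencing depth is therefore unknown here. The genotypes were compared with limma over all genes tested, and a gene was called at a Benjamini-Hochberg adjusted p under 0.05. Differences are given as log2 fold change, Top1mt-KO minus WT, with its standard error (SE). Where 3 values are given for a genotype, they are those of replicates 1, 2 and 3 in that order.

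Several facts of the libraries bear on what follows. Top1mt, the deleted gene, had log2 levels of 7.71, 5.99 and 8.01 in WT and 5.58, 6.41 and 6.32 in KO. Against its label, WT replicate 2 had a lower level than KO replicates 2 and 3, and the groups are used as labelled. KO replicate 1 stood apart by the transcript Gm42418, with a log2 level of 22.0 against 11.7 to 15.8 in the others. The labelled tissue was checked by hepatocyte markers, of which 7 of 8 were found by symbol, and Alb lay between 20.3 and 21.1. Adipocytes also make fatty acids. Of 5 adipocyte markers, 4 had a mean log2 level under 1, and Adipoq did not exceed 0.785 in any library.

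Promoter sequence is shown for both transcription factors of the pathway, for Fasn as its central enzyme, and for Insig2, whose level is described further on. Each line holds the 250 bases before a transcription start of RefSeq (GRCm38.p6), written 5′ to 3′ on the strand of the gene. Capitals mark the CCAAT box (CCAAT or its reverse ATTGG), the E-box (CACGTG) and a loose SREBP site (TCACNCCAC), each searched on both strands.
Fasn, chr11:120824548-120824797, minus strand: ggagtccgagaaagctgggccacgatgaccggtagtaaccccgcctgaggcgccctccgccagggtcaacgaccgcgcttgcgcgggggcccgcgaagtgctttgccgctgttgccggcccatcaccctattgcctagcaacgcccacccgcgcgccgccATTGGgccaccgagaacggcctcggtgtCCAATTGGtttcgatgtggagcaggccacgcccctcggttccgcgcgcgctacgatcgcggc
Srebf1, chr11:60210472-60210721, minus strand: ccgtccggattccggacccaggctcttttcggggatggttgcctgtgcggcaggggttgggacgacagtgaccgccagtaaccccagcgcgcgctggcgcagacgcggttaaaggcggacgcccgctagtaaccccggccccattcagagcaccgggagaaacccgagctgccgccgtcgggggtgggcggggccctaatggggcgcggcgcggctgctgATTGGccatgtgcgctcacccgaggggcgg
Mlxipl, chr5:135089640-135089889, plus strand: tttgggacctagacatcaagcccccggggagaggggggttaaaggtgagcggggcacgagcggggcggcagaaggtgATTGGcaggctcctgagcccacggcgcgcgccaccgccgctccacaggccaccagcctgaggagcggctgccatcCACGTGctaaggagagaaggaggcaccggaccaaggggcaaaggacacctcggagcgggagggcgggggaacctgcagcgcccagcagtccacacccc
Insig2, chr1:121332590-121332839, minus strand: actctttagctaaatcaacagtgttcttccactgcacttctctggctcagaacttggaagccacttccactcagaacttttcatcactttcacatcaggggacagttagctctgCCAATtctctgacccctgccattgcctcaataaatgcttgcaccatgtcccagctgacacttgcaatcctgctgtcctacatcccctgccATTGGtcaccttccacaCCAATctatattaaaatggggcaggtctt
The Fasn window held 3 CCAAT boxes, and those of its CCAATTGG overlap. The Srebf1 and Mlxipl windows printed each held 1 CCAAT box, and that of Mlxipl also held 1 E-box. The Insig2 window printed held 3 CCAAT boxes, and its other 2 windows in the table held 0. Srebf1 had 3 windows and Mlxipl 2, of which 1 each is printed. Of the 10 genes, 9 had at least 1 window in the table, with 13 windows in all. A CCAAT box lay in 7 of these 13 windows, an E-box in 1 and the loose SREBP site in 1, a further window of Mlxipl. Over all 32851 windows of the same length, 33.8% held a CCAAT box, 6.02% an E-box and 1.05% the loose SREBP site. These are matches of letters, not measured binding.

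The lipogenesis genes overlapped between the genotypes throughout. By limma 0 of the 10 had an adjusted p under 0.05 (0% of all genes tested), and each had an adjusted p of 0.999. Top1mt, the deleted gene, did not pass either. Its log2 fold change was -1.13 (SE 0.52), with an unadjusted p of 0.0611 and an adjusted p of 0.999 by limma. The paper reports differentially expressed genes between these tumors from DESeq2 on counts, which were not used here. An unadjusted p under 0.05 was reached by 0 of the 10, where 4.34% of all genes tested reached it, 1.79% higher and 2.56% lower in KO. The KO and WT values overlapped in all 10 genes, while 8.28% of all genes tested did not overlap, 3.95% higher and 4.33% lower in KO. Of the 10 genes, 9 had a positive and 1 a negative log2 fold change. The median was 0.19 against -0.015 over all genes tested. It was 0.21 without WT replicate 2 and 0.24 without KO replicate 1, but -0.23 without KO replicate 2. The 95% intervals do not show that the genotypes were alike. For Mlxipl, the narrowest, the fold KO over WT lay between 0.899 and 1.49, and for Scd1, the widest, between 0.453 and 3.59.

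KO replicate 2 stood out from the other tumors. It was the highest of the 6 libraries in 7 of the 10 genes, Acly, Acaca, Acacb, Fasn, Scd1, Elovl6 and Me1. It was the highest library in 14.2% of all genes tested and in 18.0% of the 2826 genes whose mean level reached that of the lowest of the 10. Among those 2826 genes KO replicate 1 was the highest most often, in 30.3%, while it was the highest in 0 of the 10. KO replicate 3 was the lowest library in 4 genes, Acly, Acacb, Fasn and Elovl6, against 22.4% of all genes tested. The mean of the 10 genes' centred log2 levels stood at -0.182, 0.0847 and -0.156 in WT and -0.22, 0.772 and -0.299 in KO. All tumors but KO replicate 2 thus lay between -0.299 and 0.0847, and the KO tumors held both the highest and the lowest value.

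**Figure D1:**
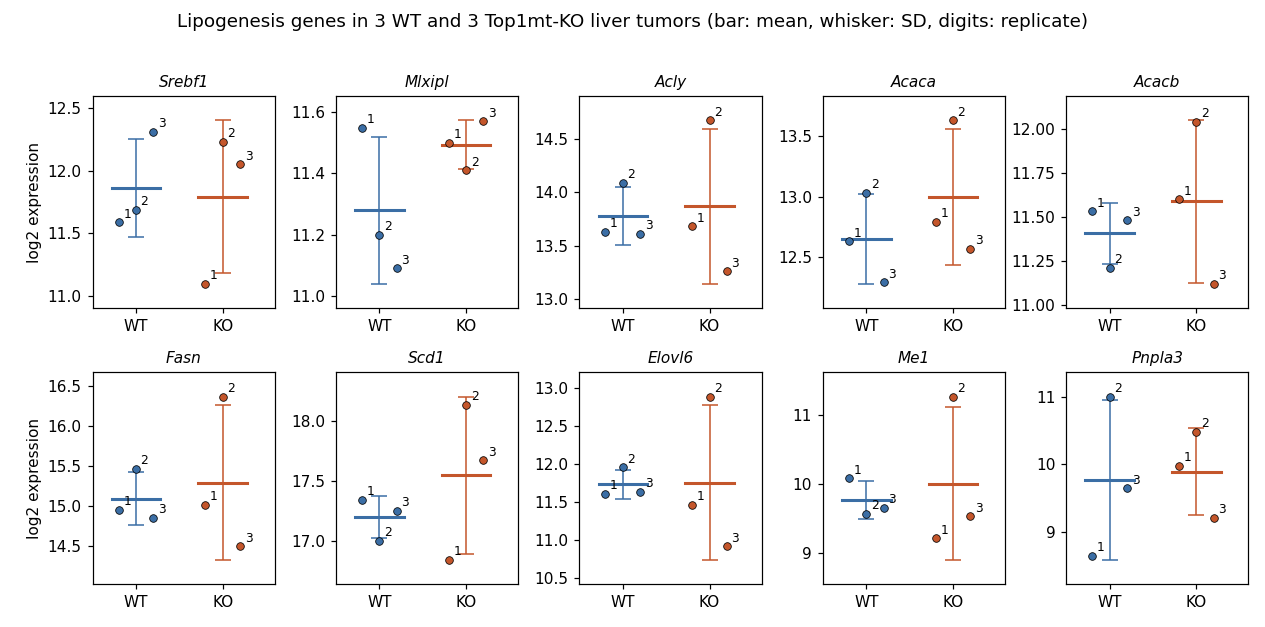
Log2 expression level of each of the 10 lipogenesis genes (y axis) in WT and Top1mt-KO tumors (x axis); points are libraries numbered by replicate, bars are means and whiskers SD of 3 libraries. KO replicate 2 is the top point in 7 of the 10 panels, and the WT and KO points overlap in each.

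The regulators ranked the tumors in another order than most of the enzymes did. Srebf1 encodes SREBP-1, the main activator of the fatty acid genes. Its log2 level stood at 11.59, 11.69 and 12.31 in WT and 11.10, 12.23 and 12.05 in KO. WT replicate 3 was highest and KO replicate 1 lowest, so that the KO values enclosed those of WT replicates 1 and 2. Srebf1 thus had a log2 fold change of -0.07 (SE 0.32), with a 95% interval of -0.82 to 0.67. It was 0.15 without WT replicate 3 and 0.27 without KO replicate 1. The table gives Srebf1 as a single row, so the SREBP-1a and SREBP-1c transcripts are not told apart.

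Mlxipl encodes ChREBP, the carbohydrate sensor, and was the least variable of the 10 genes. Its log2 level stood at 11.55, 11.20 and 11.09 in WT and 11.50, 11.41 and 11.57 in KO. The KO libraries were close together, and WT replicate 1 lay among them. KO minus WT, Mlxipl had a log2 fold change of 0.21 (SE 0.16). Without WT replicate 1 it was 0.35 and the groups did not overlap, and without WT replicate 3 it was 0.12. KO replicate 2, the tumor with the highest enzyme levels, had the lowest Mlxipl of the KO tumors.

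The enzymes of the first steps varied alike from tumor to tumor. Acly, ATP citrate lyase, had log2 levels of 13.63, 14.09 and 13.61 in WT and 13.68, 14.67 and 13.26 in KO. Both extremes were KO tumors, and the log2 fold change was 0.09 (SE 0.37). Fasn, fatty acid synthase (chr11:120805846-120824547, minus strand, GRCm38), had log2 levels of 14.96, 15.47 and 14.86 in WT and 15.02, 16.37 and 14.50 in KO. The KO tumors spanned 3.66-fold and the WT tumors 1.53-fold. The log2 fold change of Fasn was 0.20 with a 95% interval of -0.96 to 1.35 (SE 0.50), and without KO replicate 2 it was -0.34.

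Acetyl-CoA carboxylase has a cytosolic form that feeds fatty acid synthase, encoded by Acaca, and a form at the mitochondrial surface whose malonyl-CoA restrains fatty acid oxidation, encoded by Acacb. Acaca had log2 levels of 12.63, 13.03 and 12.29 in WT and 12.79, 13.63 and 12.57 in KO. Only KO replicate 2 lay above the WT values. Acaca had a log2 fold change of 0.35 (SE 0.31), or 0.035 without KO replicate 2 and 0.56 without KO replicate 3. Acacb had log2 levels of 11.53, 11.21 and 11.48 in WT and 11.60, 12.04 and 11.12 in KO. KO replicate 2 was highest and KO replicate 3 lowest, with a log2 fold change of 0.18 (SE 0.24). The difference in log2 level between Acaca and Acacb ran from 0.813 to 1.81 in WT and from 1.2 to 1.59 in KO, so the balance of the 2 forms overlapped as well.

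Chain elongation and desaturation parted in KO replicate 3. Elovl6, which elongates palmitate to stearate, had log2 levels of 11.61, 11.96 and 11.64 in WT and 11.47, 12.89 and 10.92 in KO. The WT tumors spanned 1.27-fold and the KO tumors 3.91-fold. Elovl6 had a log2 fold change of 0.02 (SE 0.44). Without KO replicate 2 it was -0.54 and the groups did not overlap, with an unadjusted p of 0.0421 and an adjusted p of 0.962 by limma.

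Scd1, the desaturase that makes oleate from stearate (chr19:44394455-44407879, minus strand, GRCm38), had log2 levels of 17.34, 17.00 and 17.25 in WT and 16.84, 18.13 and 17.67 in KO. KO replicates 2 and 3 lay above all WT tumors and KO replicate 1 below them. The log2 fold change was 0.35 with a 95% interval of -1.14 to 1.84 (SE 0.65), and 0.058 without KO replicate 2. Without KO replicate 1 it was 0.70, and the groups did not overlap. Limma's trend widens the error of the most abundant genes, and without trend the standard error of Scd1 was 0.35. In KO replicate 3 the log2 level of Scd1 was 3.17 above that of Fasn, where the difference was 1.52 to 2.4 in the other 5 libraries.

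Me1, the cytosolic malic enzyme that yields NADPH for the synthase, had the largest spread among the KO tumors. Its log2 level stood at 10.08, 9.56 and 9.65 in WT and 9.21, 11.27 and 9.53 in KO. KO replicate 2 lay 1.2 above the next library, and the KO tumors spanned 4.18-fold against 1.43-fold in WT. Its log2 fold change was 0.24 (SE 0.48). Without KO replicate 2 it was -0.40 and the groups did not overlap, so that its direction rested on that tumor.

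Pnpla3, a lipid droplet protein whose gene is a target of SREBP-1c, had the larger spread in WT, as did Mlxipl. Its log2 level stood at 8.65, 11.00 and 9.65 in WT and 9.98, 10.48 and 9.21 in KO. The WT tumors held both extremes and spanned 5.09-fold, and the KO tumors spanned 2.42-fold. WT replicate 2, the library whose Top1mt level went against its label, was the highest. The log2 fold change was 0.12 (SE 0.56), and it ran from -0.44 without WT replicate 1 to 0.74 without WT replicate 2.

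**Figure D2:**
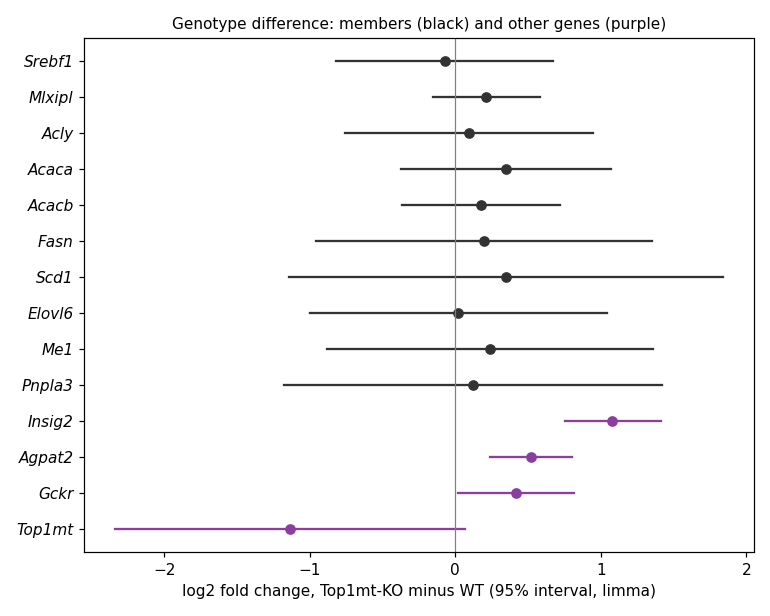
Log2 fold change, Top1mt-KO minus WT, on the x axis with its 95% interval from limma, for the 10 lipogenesis genes (black) and 4 other genes (purple). The intervals of the 10 genes all include 0, and that of Insig2, 0.75 to 1.41, lies farthest from it.

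The spread within a genotype was larger among KO tumors in 8 of the 10 genes, the exceptions being Mlxipl and Pnpla3. The same held for 53.6% of all genes tested and for 66.0% of the 2826 genes of at least the lowest mean level of the 10. The median SD of the 10 genes was 0.275 in WT and 0.647 in KO on the log2 scale, and over those 2826 genes it was 0.167 and 0.222. By the mean of the 10 genes' centred log2 levels, KO replicate 2 alone lay apart, at 0.772 against -0.22 and -0.299 in KO replicates 1 and 3. In single genes the other KO tumors added to the spread: KO replicate 3 was the lowest library in 4 of the 10 and KO replicate 1 in 3. With 3 tumors a group the difference in spread was not tested.

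Across the 6 libraries, whose values share one normalization, Acly, Acaca, Fasn and Elovl6 had Pearson correlations of 0.832 to 0.997 with one another. Without KO replicate 2 these were 0.388 to 0.996 over 5 libraries. Over all 45 pairs of the 10 genes the correlations ran from -0.52 to 0.997, with a median of 0.499. Srebf1 had correlations of 0.0482 to 0.288 with those 4 enzymes and its highest, 0.708, with Scd1. Mlxipl had correlations of -0.52 to 0.234 with the other genes apart from Srebf1, with which it had -0.419. These are descriptions over few points.

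The gene most like the mean of the 10 among genes whose SD over the libraries reached that of the least variable of them was Impa2, an inositol monophosphatase (Pearson correlation 0.99 over 6 libraries, among 17960 genes). Its log2 level stood at 5.59, 5.91 and 5.52 in WT and 5.42, 6.91 and 5.53 in KO. The next were Rassf10, Gm23557, Traj12 and Mir1946b, whose log2 levels between -0.618 and 2.13 lie near the bottom of the scale. Among genes of at least the mean level of the lowest of the 10, a limit set after the values were seen, Pkp4 (0.971), Fbp1 (0.967), Habp4 (0.95), Msra (0.946) and Eno1 (0.931) had the highest correlations. Fbp1, fructose bisphosphatase of gluconeogenesis, had a log2 level of 13.98 in KO replicate 2 and of 12.85 to 13.38 elsewhere.

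Levels were also set against each other per length, as the log2 level less the log2 of the exon length in kb from GENCODE M21. Scd1 was the highest, with a mean of 15.1 over 6 libraries (range 14.5 to 15.8), and did not overlap with the next. Fasn followed at 11.7 (11.0 to 12.9) and Acly at 11.4 (10.9 to 12.3), which overlapped with each other but, library for library over all 6, lay above the remaining 7 genes. Srebf1 (9.33), Pnpla3 (9.20), Elovl6 (9.06), Mlxipl (8.92), Acaca (8.73), Acacb (8.23) and Me1 (7.94) formed a run in which the ranges of neighbours overlapped. The length is that of all annotated exons of a gene, which can exceed that of the transcript in use.

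**Figure D3:**
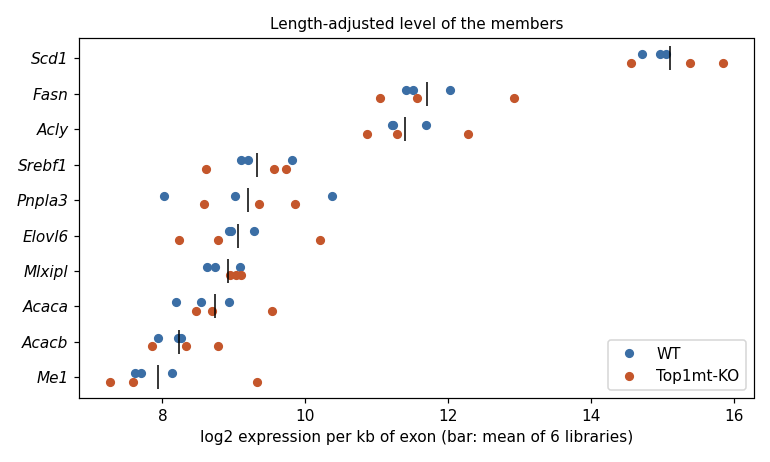
Log2 expression level per kb of exon (x axis) of the 10 lipogenesis genes (y axis) in each WT (blue) and Top1mt-KO (orange) library; the vertical bar is the mean of 6 libraries. Scd1 lies apart at 14.5 to 15.8, and Fasn and Acly lie above the other 7 genes.

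Genes that act around the pathway were read from the same fit in 9 lists of 105 genes. By limma 0 had an adjusted p under 0.05, and 5 had an unadjusted p under 0.05 (4.76%, where all genes tested had 4.34%). All 5 were higher in KO, where 1.79% of all genes tested were higher at such a p. Insig2, Gckr, Agpat2 and Fgf21 are described here. The groups did not overlap in 5 genes (4.76%, where all genes tested had 8.28%), with Insig2, Mbtps2 and Agpat2 higher and Nr1h3 and Pck1 lower in KO. Without regard to direction these shares are near or under those of all genes. The share higher in KO at an unadjusted p under 0.05 is above that of all genes, a difference that was not tested. Mbtps2, Nr1h3, Pck1 and Insig1 were named after their values were seen.

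Among the 12 regulators of SREBP and ChREBP, 5 had a positive and 7 a negative log2 fold change, with a median of -0.05, and 1 had an unadjusted p under 0.05. That gene, Insig2, encodes the INSIG isoform that rises in the fasted liver and retains SREBP in the endoplasmic reticulum. Its log2 level stood at 10.64, 10.70 and 10.84 in WT and 11.70, 11.73 and 11.98 in KO. The groups lay well apart, each within 1.22-fold. The log2 fold change was 1.08 (SE 0.14), which is 2.11-fold with a 95% interval of 1.69 to 2.65. Its unadjusted p by limma, 6.5e-05, ranked 1 of 22677, yet its adjusted p of 0.938 did not pass. An exact two-sided permutation test gave p = 0.1, the smallest that 3 against 3 allow. Every gene without overlap gives that value, so it adds nothing to the lack of overlap. The log2 fold change was 0.99 to 1.1 with each library left out. Insig1, the isoform that is itself an SREBP target, had a log2 fold change of 0.33 (SE 0.27), with overlapping groups. Scap, the escort, had one of 0.35 (SE 0.25), which ran from 0.14 without KO replicate 1 to 0.57 without WT replicate 2.

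**Figure D4:**
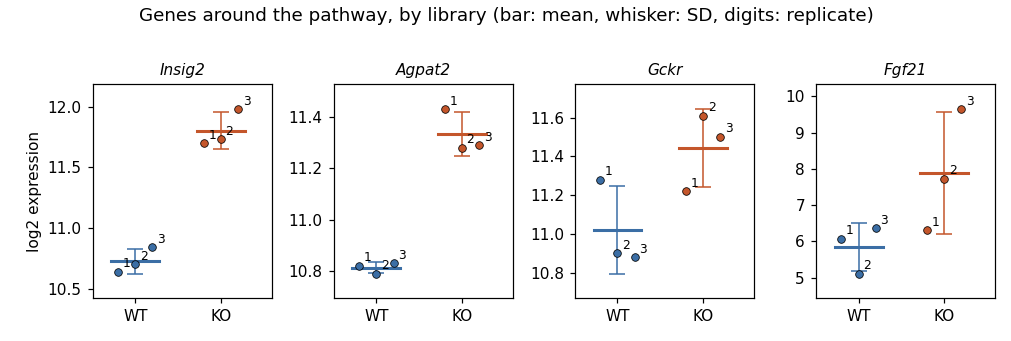
Log2 expression level (y axis) of 4 genes of the related lists with an unadjusted p under 0.05 in WT and Top1mt-KO tumors (x axis); points are libraries numbered by replicate, bars are means and whiskers SD of 3 libraries. Insig2 and Agpat2 do not overlap between genotypes, while in Gckr KO replicate 1, at 11.22, lies below WT replicate 1.

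Among 11 genes that carry glucose to acetyl-CoA, 9 had a positive and 2 a negative log2 fold change, with a median of 0.14. Gckr, which encodes a regulator of hepatic glucose use, had log2 levels of 11.28, 10.90 and 10.88 in WT and 11.22, 11.61 and 11.50 in KO. KO replicates 2 and 3 lay above all WT tumors, and KO replicate 1 lay below WT replicate 1. Gckr had a log2 fold change of 0.42 (SE 0.17, limma's adjusted p = 0.999).

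Of 16 genes of insulin and AMPK signalling, 7 had a positive and 9 a negative log2 fold change, with 0 at an unadjusted p under 0.05. Irs1, an insulin receptor substrate, had -0.36 (SE 0.17), and Foxo1, the fasting factor that insulin inhibits, had -0.25 (SE 0.32). Of 8 genes of NADPH supply other than Me1, 2 had a positive and 6 a negative value, again with 0 at an unadjusted p under 0.05. G6pdx, the first enzyme of the pentose phosphate pathway, had -0.53 (SE 0.26), or -0.32 without KO replicate 2, and H6pd had 0.23 (SE 0.25), or 0.075 without KO replicate 1, 0.39 without KO replicate 2 and 0.055 without WT replicate 3. In KO replicate 2, where Me1 was highest, the log2 level of G6pdx was the lowest of the 6 libraries, at 7.91 against 8.33 to 9.13.

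Of 15 further desaturases and elongases, 9 had a positive and 6 a negative log2 fold change, with a median of 0.0062 and 0 at an unadjusted p under 0.05. Elovl3 had 1.05 (SE 0.87) with KO tumors that spanned 14.8-fold, and it ran from 0.23 without KO replicate 3 to 2.2 without KO replicate 2. Elovl5, which elongates polyunsaturated chains, had 0.70 (SE 0.33). The Scd paralogs are near copies of each other, and the authors kept only reads that mapped to 1 place, so their levels are less certain. Of 11 genes of triglyceride assembly, 6 had a positive and 5 a negative value. Agpat2, an acyltransferase of that pathway, had log2 levels of 10.82, 10.79 and 10.83 in WT and 11.43, 11.28 and 11.29 in KO. Its WT values were nearly equal and all KO values lay above them (log2 fold change 0.52, SE 0.12, unadjusted p = 0.00278 and adjusted p = 0.968 by limma). Pnpla5, a relative of Pnpla3, had a log2 fold change of -0.57 (SE 0.44), which ran from -0.99 without KO replicate 1 to -0.15 without KO replicate 3.

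Among 9 other targets of the lipogenic factors, 3 had a positive and 6 a negative log2 fold change, with 0 at an unadjusted p under 0.05. Mid1ip1, which promotes the polymer form of acetyl-CoA carboxylase, had -0.36 (SE 0.34), which ran from -0.65 without WT replicate 1 to -0.021 without KO replicate 1. Aacs had -0.30 (SE 0.23), or -0.48 without KO replicate 2 and -0.12 without WT replicate 3. KO replicate 2 was the highest library in 5 of these 9 genes and in 5 of the 11 glucose genes, against 14.2% of all genes tested. It was also the highest in 3 of 8 NADPH genes and in 4 of 15 desaturases and elongases. In signalling it was so in 2 of 16 genes, in the fasting response in 2 of 11 and in triglyceride assembly in 1 of 11. It was so in 0 of the 12 regulators and in 0 of the 12 genes of cholesterol synthesis. Thrsp, a thyroid hormone responsive gene of lipogenic tissue named after its values were seen, had log2 levels of 11.25, 11.44 and 10.82 in WT and 10.65, 12.23 and 10.07 in KO. As for Fasn, both extremes were KO replicates 2 and 3.

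The cholesterol genes, which SREBP-2 drives, had another pattern across the tumors. Of 12 genes, 5 had a positive and 7 a negative log2 fold change, with 0 at an unadjusted p under 0.05. The mean of their centred log2 levels was lowest in WT replicate 1, at -0.468, and was -0.193 in KO replicate 2. Hmgcs1, an enzyme of the early pathway, had a log2 fold change of 0.42 (SE 0.30), or 0.16 without WT replicate 1 and 0.72 without WT replicate 2. Of 11 fasting response genes, 5 had a positive and 6 a negative value. Fgf21, a hormone of the fasted and stressed liver, had log2 levels of 6.06, 5.11 and 6.36 in WT and 6.31, 7.72 and 9.65 in KO. KO replicates 2 and 3 lay above WT and KO replicate 1 among it (log2 fold change 2.05, SE 0.76, and 1.2 without KO replicate 3). Pdk4, which restrains pyruvate dehydrogenase in fasting, had 0.64 (SE 0.42), or 1.0 without WT replicate 1, 0.32 without WT replicate 2 and 0.33 without KO replicate 3.

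**Figure D5:**
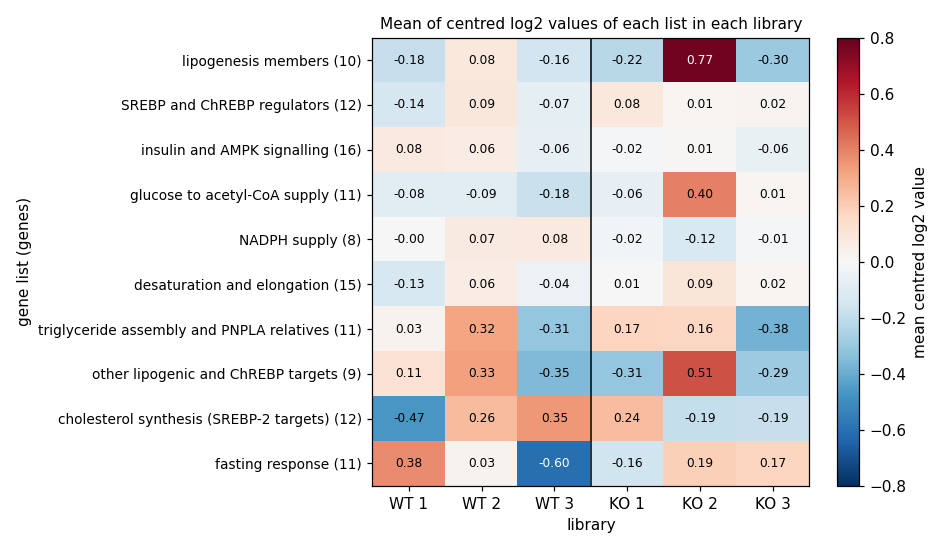
Mean of the centred log2 levels of each gene list (y axis, number of genes in brackets) in each library (x axis); red is above and blue below the mean of the 6 libraries. The lipogenesis row is 0.772 in KO replicate 2 and between -0.299 and 0.0847 elsewhere, while the cholesterol row is -0.193 there.

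Markers of cell types are given beside these values, and their part in the results was not tested. Summed log2 level here means the log2 of the sum of the unlogged levels, in which the most abundant gene weighs most. For the 7 hepatocyte markers, where Alb dominates, it ran from 21.0 to 21.7 in WT and from 21.2 to 21.8 in KO. KO replicate 2 was at 21.2. The mean of these markers' centred log2 levels stood at -0.204, 0.27 and -0.303 in WT and 0.349, -0.283 and 0.171 in KO. The summed log2 level of the 8 stellate cell and fibroblast markers stood at 14.6, 13.4 and 13.1 in WT and 12.2, 14.3 and 13.4 in KO. Pericentral hepatocytes are the main site of lipogenesis in the liver lobule. Of 7 pericentral markers found, 7 had a negative log2 fold change, with a median of -0.77. Over all genes tested, 11860 of 22677 had a negative one. Limma's unadjusted p was under 0.05 in 4 of the 7, among them Glul and Cyp2e1. That share was 4.34% over all genes tested, with 2.56% lower in KO. The mean of the 7 pericentral markers' centred log2 levels stood at 0.792, -0.148 and 0.686 in WT and -0.633, -0.513 and -0.184 in KO. Whether they mark a cell type in tumor tissue was not tested. The summed log2 level of the 5 adipocyte markers was 2.63 to 2.79 in WT and 2.51 to 3.17 in KO, and lowest in KO replicate 2. Bile duct markers were lower in KO by the mean of their centred log2 levels, which stood at 0.49, 0.0637 and 1.09 in WT and -0.965, -0.0651 and -0.614 in KO and did not overlap. Of the 6 bile duct markers, 4 had a negative and 2 a positive log2 fold change, with a median of -0.94. Krt19 (0.156-fold KO over WT) and Krt7 (0.218-fold) had an unadjusted p under 0.05 by limma, or 2 of 6, against 4.34% of all genes tested. The 2 that went the other way were Sox9, at 1.11-fold, and Spp1, the most abundant, at 1.03-fold. The summed log2 level of the 6, which Spp1 dominates, overlapped. Of the 8 stellate cell and fibroblast markers 7 had a negative log2 fold change, and 1, Lrat, had an unadjusted p under 0.05. Of the 6 endothelial markers 5 had a positive value, and 1, Cdh5, had an unadjusted p under 0.05. The macrophage, B and T cell and periportal lists had 0 genes at an unadjusted p under 0.05, and their centred means overlapped between the genotypes. These marker genes were picked for naming with their values in view.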

How the data were processed

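RNA of 3 WT and 3 Top1mt-KO liver tumors had been sequenced from stranded libraries. The table that the authors deposited holds log2 expression, already normalized between libraries, in a transform that neither the paper's text nor the labels name. Its values span -2.24 to 22.0. As in a regularized log, weak genes are pulled together, and their differences are understated. The submitters' processing notes list Trimmomatic 0.36, STAR 2.5.1, Subread, DESeq2 and GRCm38, whereas the paper's methods name BWA and Mm 8, and the cause of this discrepancy is not given in the sources used here. Only reads that mapped to 1 place were kept, per the methods. No counts were used here. The table's 3 columns without a name hold 24 leftover cells and were not used; there were 0 further columns of sample values. Of all symbols, 5 are repeated.

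The genotype contrast was fitted in R 4.3.3 by limma 3.58.1 (lmFit, eBayes with trend, Benjamini-Hochberg) over the genes whose mean exceeded the lowest 25%. The procedure was also run on simulated data with known shifts, and the outcome of that run is not reported here. The members, lists and tests were chosen with earlier results of these data known. Named genes are Top1mt, the 10 members, and in each related list those at an unadjusted p under 0.05 and the 2 with the largest absolute difference, plus the 5 genes most like the members' mean. Alternatives were no trend, quantile normalization, median centring, no filter, a stricter filter at the median gene, a block for replicate number, and each library left out. Hepatocyte and pericentral markers without a match by symbol were Tf and Rhbg. Gene coordinates and promoters are on GRCm38, and no coordinates were taken from the table. Some genes that the rule names are not reported here, and the counts of their lists include them.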

Additional observations from a re-analysis of the deposited data

How the results depend on the processing

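Without the filter on weak genes, limma called 4 genes at an adjusted p under 0.05, where it called 0 with it, and from 0 to 1 with each library left out. None of these calls was among the 10 lipogenesis genes. The 10 genes at an unadjusted p under 0.05 numbered 0 to 1 with each library left out, the 1 being Elovl6 without KO replicate 2. Those without overlap numbered 0 to 2: Mlxipl without WT replicate 1, Scd1 without KO replicate 1, Elovl6 and Me1 without KO replicate 2 and Acacb without KO replicate 3. Under the replicate block limma called 0 genes, and 912 against 985 without it reached an unadjusted p under 0.05, of which 0 were among the 10. Deviations of libraries that share a number were correlated at -0.123, -0.0759 and 0.052, and the numbers were not taken to pair tumors.

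The log2 fold changes of 29 named genes were followed (the 5 named for likeness have none reported), and 8 changed direction under an alternative, 7 of them among the 10. Elovl6 was -0.020 with quantile normalization. With each library left out the log2 fold changes ran from -0.29 to 0.27 for Srebf1, -0.31 to 0.40 for Acly, -0.050 to 0.41 for Acacb, -0.34 to 0.60 for Fasn, -0.54 to 0.44 for Elovl6, -0.40 to 0.64 for Me1, -0.44 to 0.74 for Pnpla3 and -0.53 to 0.019 for Foxo1. The median over the 10 genes ran from -0.23 without KO replicate 2 to 0.43 without KO replicate 3. The causes were not tested. Insig2 did not pass in any of the 12 alternatives, with adjusted p from 0.333 to 0.999 by limma. Its direction could not change with a library left out, because its groups did not overlap. Depth is unknown, and 3 tumors a group limit what could be detected.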
